A study of Mus musculus with 6 samples.

Results

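The skeletal myosin heavy chain genes of the mouse lie side by side on chromosome 11, and this account describes their H3K27ac, the acetylation of histone H3 at lysine 27, in quadriceps muscle. The members were the peaks that the deposited tables name for Myh3, Myh2, Myh1, Myh4, Myh8, Myh13 or the neighbouring non-coding RNA gene 2310065F04Rik, also called linc-Myh. They came to 10 of 46988 peaks in the control table and 9 of 40721 peaks in the detrained table, 19 of 87709 in all. Of the 7 genes, 4 had a peak named for them in at least 1 table, and 3 (Myh3, Myh8 and Myh13) had none in either.

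The samples were quadriceps of wild type mice, labelled C57BL/6 for the H3K27ac libraries and C57BL/7 and C57BL/8 for the inputs and given as C57BL/6J in the study's methods, 1 quadriceps of 1 animal each by the study's methods, which give male animals 8 weeks old at the start. Control mice were sedentary, and mice of the detrained group had wheels for voluntary running for 4 weeks and were rested for 72 h before harvest. Each of the 2 groups had 2 H3K27ac libraries and 1 input library, which is sheared chromatin without immunoprecipitation. The comparison addresses what running followed by rest left in this chromatin mark. Both groups are whole muscle, so that fewer nuclei of a fibre type and less acetylation per nucleus cannot be told apart.

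Myosin heavy chain is the motor protein of the thick filament, and each muscle fibre is classed by the chain it makes. Myh4, Myh1 and Myh2 encode the fast chains of type IIb, IIx and IIa fibres, in order of falling speed, while Myh3 and Myh8 encode the embryonic and neonatal chains and Myh13 the chain of extraocular and laryngeal muscle. The slow chain, Myh7, lies on another chromosome. H3K27ac marks active promoters and enhancers, and the region around linc-Myh is known as an enhancer domain of the fast genes. Endurance running is known for moving fibres from type IIb toward IIx and IIa.

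The promoters of the 4 genes with peaks are shown because the acetylated domains lie over 3 of these start sites and not over that of Myh2. Each sequence is from RefSeq (GRCm38.p6, the same build as mm10), runs from 250 bases before to 50 after the start site on the gene's own strand, and is in lower case with matches to a TATA box (TATAAA), the MEF2 consensus or the CArG box on either strand in capitals. The windows are chr11:67120031-67120330 on the minus strand for 2310065F04Rik and, on the plus strand, chr11:67170777-67171076 for Myh2, chr11:67199852-67200151 for Myh1 and chr11:67237562-67237861 for Myh4.
2310065F04Rik: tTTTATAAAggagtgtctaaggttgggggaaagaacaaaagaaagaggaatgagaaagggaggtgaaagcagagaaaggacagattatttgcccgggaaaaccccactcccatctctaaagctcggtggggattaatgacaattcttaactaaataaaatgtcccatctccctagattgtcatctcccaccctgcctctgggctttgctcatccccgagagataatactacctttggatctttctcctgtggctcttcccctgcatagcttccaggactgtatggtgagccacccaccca
Myh2: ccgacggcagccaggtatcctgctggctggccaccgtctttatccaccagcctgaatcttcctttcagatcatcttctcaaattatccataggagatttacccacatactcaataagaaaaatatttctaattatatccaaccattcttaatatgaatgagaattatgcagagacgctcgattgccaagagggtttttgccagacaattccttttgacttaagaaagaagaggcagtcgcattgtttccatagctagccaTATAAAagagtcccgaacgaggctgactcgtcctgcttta
Myh1: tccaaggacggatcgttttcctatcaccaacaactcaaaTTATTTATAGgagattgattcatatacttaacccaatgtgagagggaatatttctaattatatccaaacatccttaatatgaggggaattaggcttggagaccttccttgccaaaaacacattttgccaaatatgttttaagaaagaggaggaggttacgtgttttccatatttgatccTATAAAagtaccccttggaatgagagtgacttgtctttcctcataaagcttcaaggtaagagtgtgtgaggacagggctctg
Myh4: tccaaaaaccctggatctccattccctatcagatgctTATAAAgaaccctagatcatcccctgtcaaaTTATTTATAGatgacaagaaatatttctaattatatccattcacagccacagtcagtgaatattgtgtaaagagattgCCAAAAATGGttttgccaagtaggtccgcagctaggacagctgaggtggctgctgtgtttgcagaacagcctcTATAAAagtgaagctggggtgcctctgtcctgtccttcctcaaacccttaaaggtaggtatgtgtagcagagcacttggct

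All 7 promoters were matched by symbol. A TATA box stood in 6 of them, against 13.6% of all 32817 promoter windows, and it began 32 bases before the window's start site in Myh1, 31 before in Myh4 and 29 before in Myh3. In Myh2 it began at base 11 after the annotated start. In Myh8 the match was on the reverse strand, 96 bases before the start, and in 2310065F04Rik the matches began 249 and 247 bases before it, so that these 2 of the 6 were not near the usual place of a TATA box. The MEF2 consensus, the site of a muscle transcription factor family, stood in Myh1, Myh4 and Myh8 (3.19% of all windows), and each of the 3 matches was the same run of 10 bases and held a reverse-strand match to TATAAA within it. The CArG box, the site of serum response factor, stood in Myh4 and Myh13 (1.63%). The E-box CANNTG, the site of the myogenic factors, stood in 4 of the 7 promoters (72.3%), and the MEF3 site TCAGGTT in 0 (4.07%). These matches are letters in a window and are no evidence of binding. GC content was 38% in Myh1, 42.3% in Myh2, 43% in Myh4 and 46.7% in 2310065F04Rik, against a median of 52.7% over all windows.

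The promoters of Myh2, Myh1 and Myh4 also shared an unbroken run of 20 bases, shown because it was in these 3 windows and in 0 other of the 32817 on either strand.
shared run: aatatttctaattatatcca
It began 130 bases before the start site in Myh2, 165 before in Myh1 and 163 before in Myh4. The longest run shared by Myh1 and Myh8 was 22 bases, and the longest run between 2310065F04Rik and Myh2 was 9 bases.

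**Figure D1:**
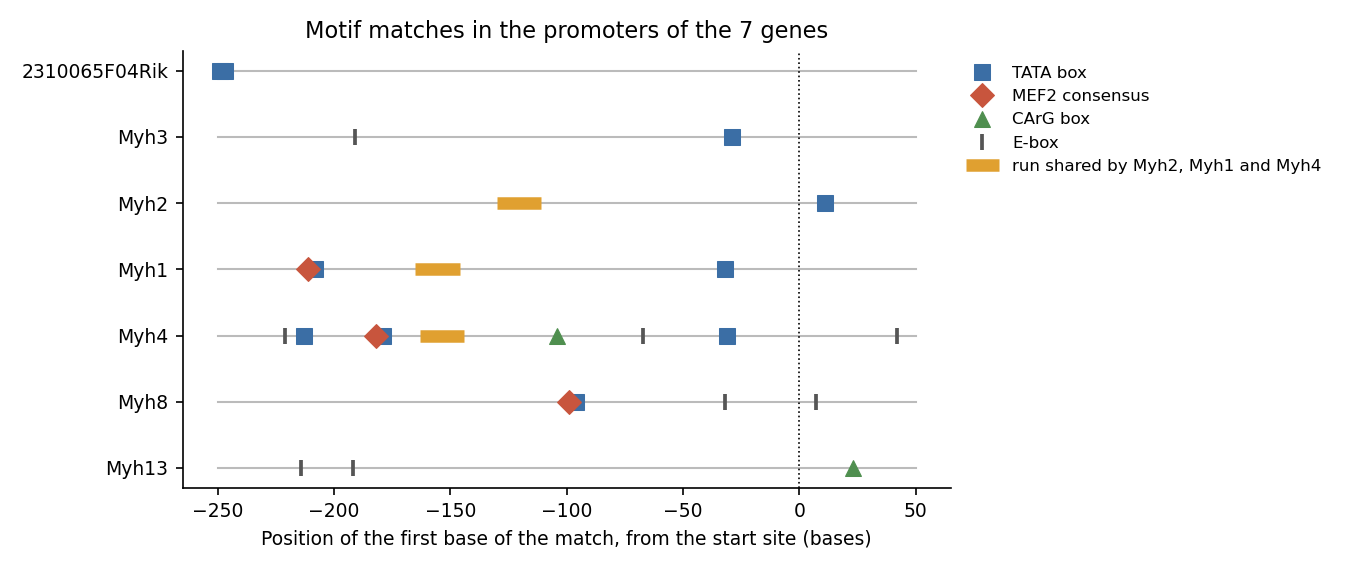
Position of motif matches in the 7 promoters, in bases from the start site, with 1 line per gene and 1 symbol per match at its first base. The TATA box lies at -32 in Myh1 and -31 in Myh4 but at 11 in Myh2, and the orange run of 20 bases is in Myh2, Myh1 and Myh4.

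The libraries held between 20805019 and 22400894 H3K27ac tags, and the inputs 10812470 tags in the control group and 21298438 in the detrained group. Values are tags per 10000000 total tags, or that number per kb of peak, called density here. The control libraries are called C2 and C3 and the detrained libraries Ex1 and Ex2, and a pair of values for a group stands in that order. The labels do not say which control sample is C2. Of 10 muscle fibre genes, 9 had a peak in each group, with summed tags of 10461 in control and 10057 in detrained, and the tenth, Tnnt3, was overlapped by peaks named for Lsp1 and Prr33 (3047 and 2933 tags). All 4 endothelial genes had peaks (1813 and 2036 summed), as did Pax7 and Myf5 of satellite cells (176 and 237) and both neuron genes (364 and 349), while immune genes had peaks at 2 of 4 in control and 3 of 4 in detrained (41.4 and 151). Adipocyte and heart genes had 0 peaks in both groups and liver genes had 0 in control and 1 in detrained (18.5). The part of these other cells in the values below was not tested.

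The peaks of the cluster fell into a strong part and a weak part. The strong peaks covered linc-Myh and the interval upstream of it, the start of Myh1, and the start of Myh4 together with the antisense RNA gene Myhas. The weak peaks lay in the bodies of Myh2, Myh1 and Myh4, upstream of Myh2, between the domains near linc-Myh and in Myhas. The peaks with at least 100 tags per 10000000 had 6.32 to 16.9 times the input tags in control and 6.39 to 14.4 times in detrained, and those with fewer tags had 3.55 to 5.54 times and 3.42 to 6.14 times.

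**Figure D2:**
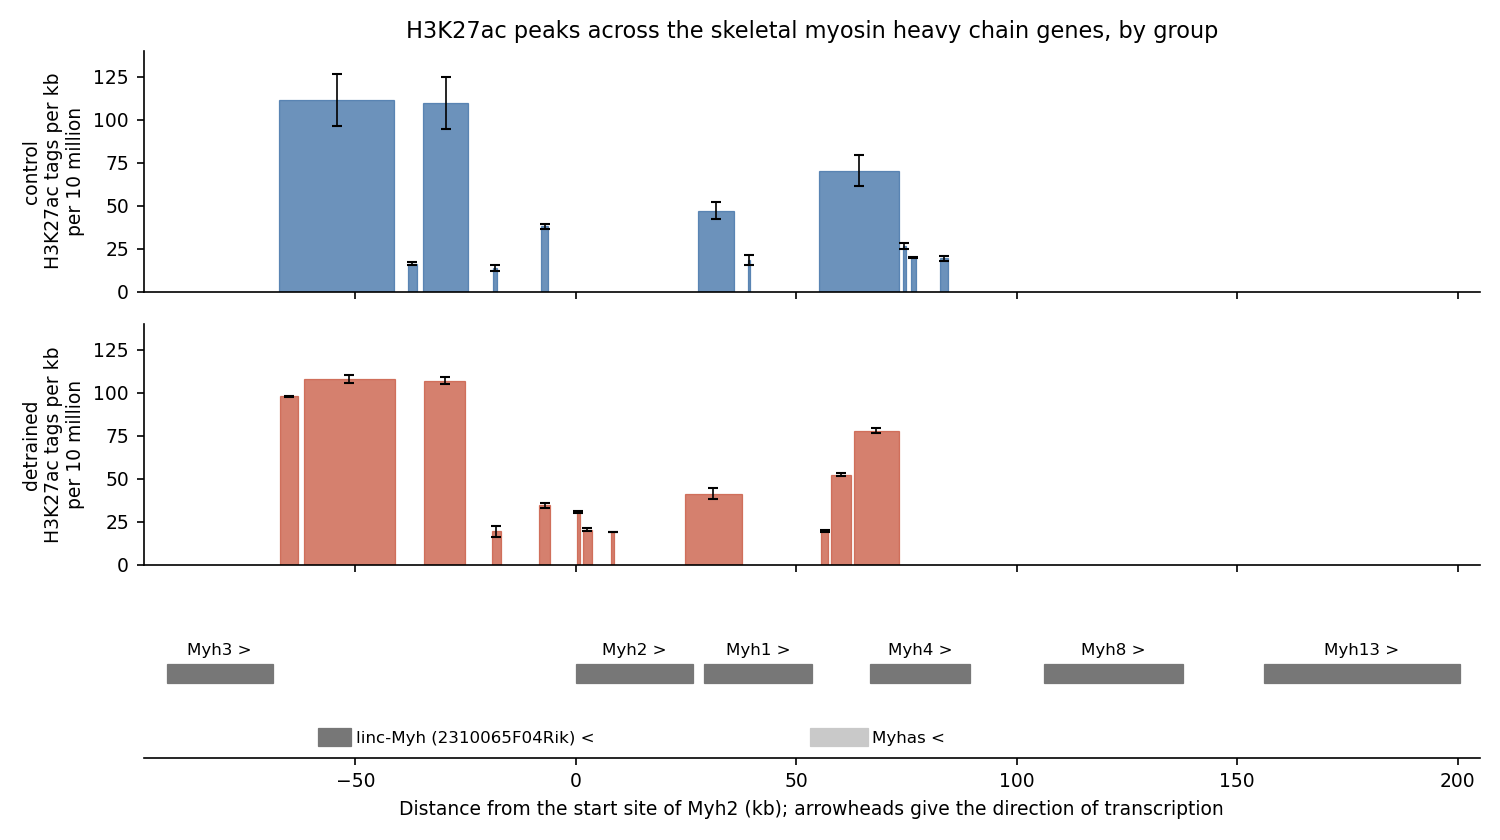
H3K27ac density of each peak (bar height, tags per kb per 10000000, both libraries pooled; whiskers, the 2 libraries) against distance from the start site of Myh2 in kb, with control on top, detrained below and the genes at the bottom. The bars near linc-Myh are the tallest in both groups, and no bar lies over Myh3, Myh8 or Myh13.

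The largest peak was the linc-Myh domain. In control muscle it was 1 peak of 26.1 kb (chr11:67103751-67129856) with 2900.2 tags per 10000000 (95% exact Poisson interval 2850 to 2951, which covers counting error only), the 11th strongest and 24th longest of the 46988 control peaks. It held the linc-Myh gene from end to end, and 70.8% of it was intergenic. In detrained muscle the same interval was listed as 2 peaks, 1 of 4.14 kb named for the microRNA gene Mir6923 (405 tags) and 1 of 20.5 kb named for 2310065F04Rik (2211.5 tags), which was the 23rd strongest of 40721. Because a gene name went with each piece, summing by name alone put the Mir6923 piece outside the cluster.

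Control and detrained peaks that overlapped by at least 1 bp were therefore joined into blocks, and the values of a block were compared whatever the name. The density of the linc-Myh domain was 96.1 and 126 in control and 108 and 104 in detrained. Both detrained libraries lay between the 2 control libraries, so the groups overlapped. The log2 density was 0.05 lower in detrained (detrained minus control, -0.05), well inside the gap of 0.40 between C2 and C3.

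The second strong block lay upstream of linc-Myh, with its centre 21.5 kb from the start site in control (10.1 kb, 1108 tags) and 21.2 kb in detrained (9.45 kb, 1011 tags). The file annotates it as intergenic. Its density was 94.6 and 125 in control and 109 and 105 in detrained, close to that of the linc-Myh domain in each library, and the detrained values again fell between the control values. The difference in log2 density was -0.02.

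Between these 2 domains the control table held a weak peak of 2.19 kb (37.7 in C2 and 33.7 in C3, as tags per 10000000) that overlapped no detrained peak.

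The third strong block covered the start site of Myh4, the fastest chain, and most of Myhas, which is transcribed away from it on the other strand. In control muscle it was 1 peak of 17.9 kb with 1256.9 tags, in rank 152 of the control peaks, and the table named it for Myhas. In detrained muscle it was 3 peaks. Those over Myhas held 33.1 and 238.2 tags, and the third, of 10.3 kb, held 800.4 tags and was named for Myh4. The density of the whole block was 61.3 and 79.2 in control and 66.1 and 63.9 in detrained. In density the groups overlapped, and the difference in log2 density was -0.10. The tags of the block were 1099 and 1419 in control and 1091 and 1054 in detrained. In tags both detrained libraries were therefore below both control libraries, with a difference of -0.23 in log2 tags. The called length was 17.9 kb in control and 16.5 kb in detrained.

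The naming decided the value of Myh4 by gene name. Its summed tags were 75.1 and 83.4 in control and 814 and 788 in detrained, although the start site was inside a peak in both groups. The same naming gave Myhas 1256.9 tags in control and 271 in detrained. More than 1 gene name in a block was found in 1.95% of the 31776 blocks with a peak of both tables, and more than 1 peak of a table in 9.59%. In the cluster 2 of 6 such blocks had both, the linc-Myh domain and the Myh4 block.

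Control muscle had 3 more weak peaks in the body of Myh4, with 20.6, 21.7 and 36.9 tags, and none of them overlapped a detrained peak. Peaks covered 44.9% of the Myh4 gene in control and 28.6% in detrained.

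Myh1, the gene of the IIx chain, had its start site inside a peak in both groups. The peak was 8.31 kb long in control and 12.8 kb in detrained, and the longer one reached from the last part of Myh2 to 8523 bp inside Myh1. Its tags per 10000000 were 350 and 434 in control and 571 and 492 in detrained, so that both detrained libraries were above both control libraries in tags. Its density was 42.2 and 52.3 in control and 44.4 and 38.3 in detrained, and there the groups overlapped, with a difference of -0.19 in log2 density, the largest fall among the blocks with all libraries in. It was -0.34 without C2, -0.03 without C3, -0.29 without Ex1 and -0.08 without Ex2, and without C3 or Ex2 the block 7.06 kb upstream of Myh2 had the lower value (-0.09 and -0.19). The called length differed by 0.63 on the log2 scale, and 12.3% of all blocks with both tables were longer in detrained by at least as much. A control peak of 0.5 kb further inside Myh1, with 9.28 tags (6.66 to 12.6), had no detrained partner.

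Myh2, the gene of the IIa chain, differed from Myh1 and Myh4 in that no peak lay over its start site. The nearest control peak ended 6202 bp before it, and the nearest detrained peak began 346 bp after it. The upstream peak 7.06 kb before the start in control was 7.07 kb before it in detrained, with densities of 36.7 and 39.2 in control and 33.2 and 36.0 in detrained. In density both detrained libraries were below both control libraries there, by 0.13 on the log2 scale. That difference was -0.07 without Ex1 and -0.09 without C3. The called length of this peak was 1.71 kb in control and 2.45 kb in detrained. Its tags were 62.6 and 66.8 in control and 81.4 and 88.4 in detrained. In tags both detrained libraries were therefore above both control libraries, with a difference of 0.39 in log2 tags.

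The other upstream peak, 18.3 kb before the start in control and 18.01 kb in detrained, had densities of 11.8 and 15.7 in control and 16.5 and 22.5 in detrained. Both detrained libraries were above both control libraries, and the difference of 0.47 in log2 density was the largest rise among the blocks. It was 0.27 without C2, 0.68 without C3, 0.70 without Ex1, 0.25 without Ex2 and 0.30 with a pseudocount of 5 tags. The control peak rested on 48 tags (10.9 per 10000000, 8.01 to 14.4) and the detrained peak on 187 (43.3, 37.3 to 50.01). The detrained peak was also longer, 2.21 kb against 0.79 kb, and 1.596% of all blocks were longer in detrained by at least as much.

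Inside Myh2 the detrained table listed 3 weak peaks, with 15.5, 41.2 and 9.5 tags, and the control table listed none. They covered 11.3% of the gene, and with the detrained Myh1 peak that reaches over its end 17.9% lay in peaks, against 0% in control. The first, in an intron and centred 596 bp after the start, had 15.2 tags in Ex1 and 15.8 in Ex2 per 10000000, the second 43.5 and 39.2, and the third 9.57 and 9.44. The control libraries have no value at these places, since the tables hold only called peaks, so that the size of the difference is unknown.

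**Figure D3:**
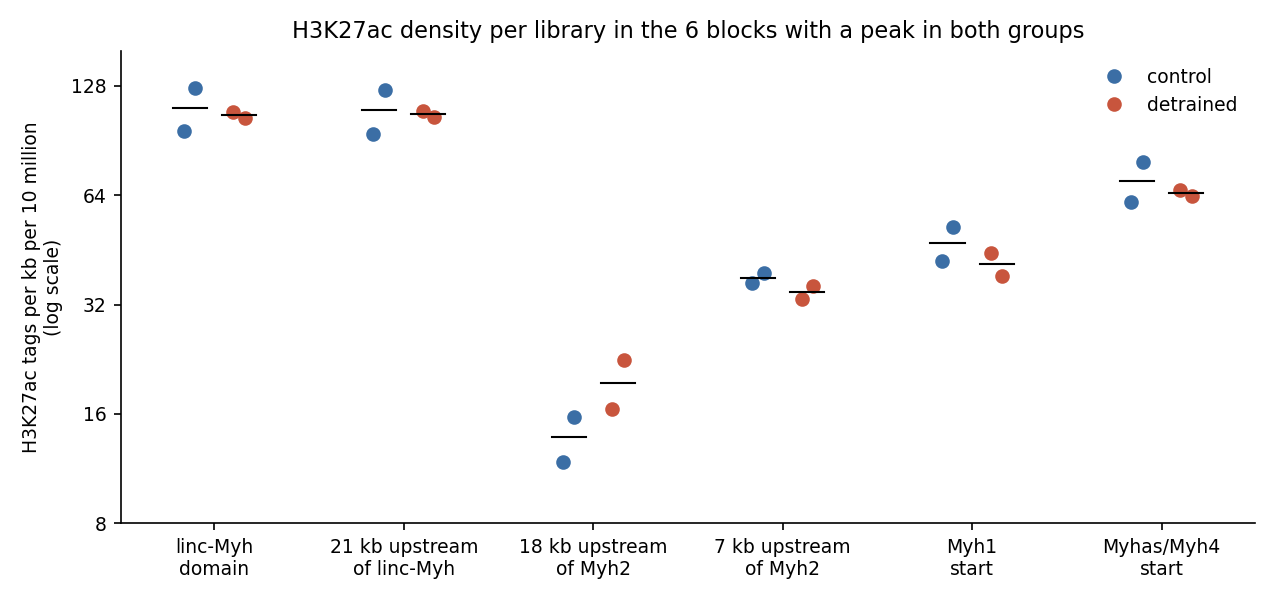
H3K27ac density (tags per kb per 10000000, log scale) of the 6 blocks that held a peak of both tables, with 1 point per library and a line at the mean of each group. The detrained points lie between the control points in the linc-Myh domain, the block upstream of it and the Myh4 block, overlap them at Myh1, lie above them at the far upstream peak of Myh2 and below them at the near one.

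Of the 14 blocks of the cluster, 6 held a peak of both tables, 5 of control only and 3 of detrained only. A block was called apart where its density differed 2-fold or more and the libraries of the groups did not overlap. This held for 0 of the 6, against 55 of 31776 blocks in all (0.173%), so that 0 of 6 is near the background. By density, both detrained libraries were above both control libraries in 1 of the 6 (21.5% of all blocks) and below in 1 (27.2%), shares near the background for so few blocks. These sides depended on the called length. By tags, both detrained libraries were above in the Myh1 block and the blocks upstream of Myh2, and below in the Myh4 block. No share over all blocks stands beside the sides by tags, so nothing is read from them. The median log2 density difference was -0.08 in the 6 blocks and -0.03 over all. No test between groups was made, because the tables were normalized separately and an exact permutation test of 2 libraries against 2 cannot give a p below 0.333.

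Of the control peaks of the cluster, 5 of 10 overlapped no detrained peak, against 27.9% of all control peaks, and of the detrained peaks 3 of 9 overlapped no control peak, against 18% of all. These peaks were weak, between 9.28 and 36.9 tags in control and between 9.5 and 41.2 in detrained. Among all control peaks of that range 49.4% overlapped no detrained peak. Among all detrained peaks of their range 37.9% overlapped no control peak. These shares cover weak peaks only, and those of the cluster its strong peaks too, so they are not like for like. Of the members' control peaks in the range, all but the Myh2 peak of 10.9 tags overlapped no detrained peak. Of their detrained peaks in the range, none overlapped a control peak. The ranges were set by these same peaks, so no comparison is drawn. The 3 detrained-only peaks were those inside Myh2, and the 5 control-only peaks those in Myh1, in Myh4 and between the linc-Myh domains, and nothing is read from the places of so few weak peaks.

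Summed over the peaks named for the 7 genes, the cluster held 4012 and 5204 tags in control and 4865 and 4638 in detrained, on 53.5 kb of control peaks and 60.7 kb of detrained peaks. The detrained values lay between the control values. These peaks were 0.0969% of all listed tags in control and 0.104% in detrained, on 0.0520% and 0.0606% of the listed length. The difference in log2 tags was 0.06, and it was -0.10 when the Myhas and Mir6923 peaks inside the cluster were added. The density was 75.02 and 97.3 in control and 80.1 and 76.4 in detrained, with a difference of -0.13. Without C3 that difference was 0.06, without C2 it was -0.31, so that the direction turned with the control library C3.

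C3 was above C2 in all 4 control peaks of the cluster with at least 300 tags, by 0.40 in both linc-Myh blocks, 0.31 at Myh1 and 0.37 at Myh4 on the log2 scale. Over the 3275 control peaks with at least 300 tags the median of this gap was 0.17, with a 5th percentile of -0.08 and a 95th of 0.44, and 79.0% to 91.9% of those peaks had a smaller gap than the 4. Ex2 minus Ex1 was between -0.21 and 0.00 in the 5 detrained peaks of the cluster with at least 300 tags, with a median of -0.08 over 3133 peaks. Leaving out C3 made the log2 density of the linc-Myh domain, the block upstream of it and the Myh4 block higher in detrained, by 0.14, 0.18 and 0.08, and leaving out C2 gave -0.25, -0.22 and -0.28.

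**Figure D4:**
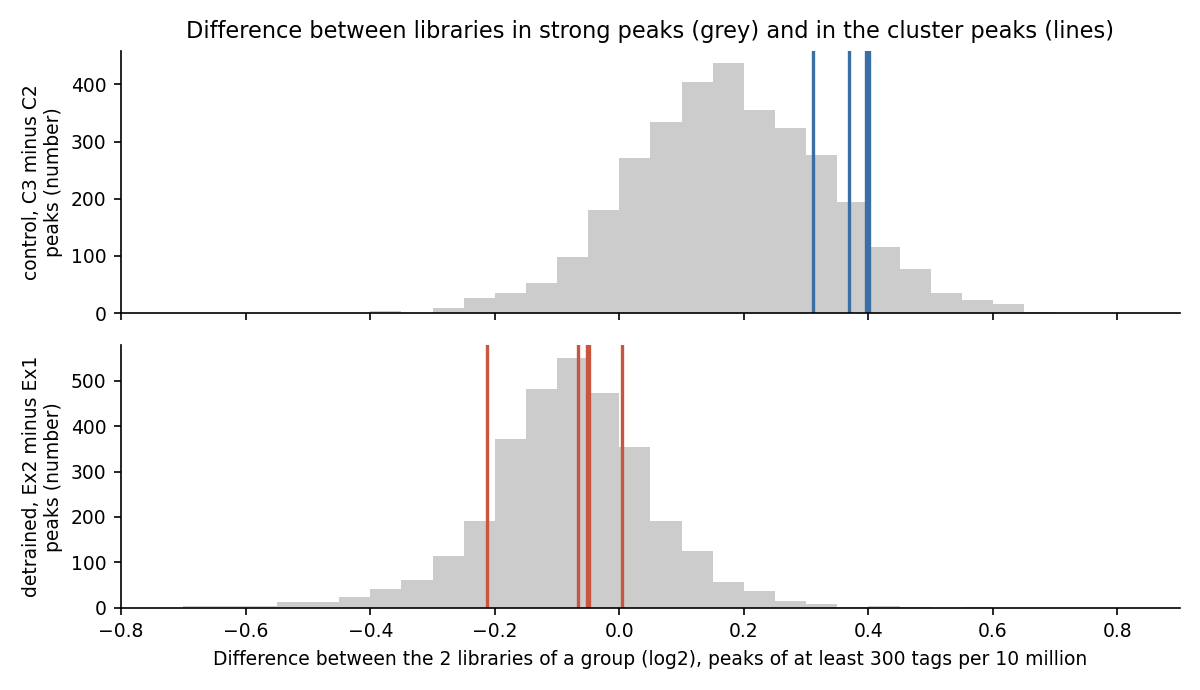
Difference between the 2 libraries of a group (log2) in peaks with at least 300 tags per 10000000, as a count of peaks (grey), with the peaks of the cluster of that strength as coloured lines, control on top and detrained below. The 4 control lines lie between 0.31 and 0.40, to the right of the median of 0.17, and the detrained lines lie between -0.21 and 0.00.

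By gene name, linc-Myh ranked 20th by summed tags among the 14784 genes with a peak in control and 50th among the 14382 in detrained, where its sum lacks the 405 tags of the Mir6923 piece. Its density was 105 and 108, the highest of the members in both groups. Myh1 ranked 3369th and 2319th, with 45.6 and 41.3 tags per kb, and Myh2 10816th and 6340th, with 30.3 and 25.4 tags per kb. Myh4 had 21.04 tags per kb in control and 78.0 in detrained, a difference that followed the name and not the block. Among the blocks with a peak of both tables, the linc-Myh domain and the block upstream of it came first by density. These did not differ beyond the spread of the libraries. Then came the Myh4 block, then Myh1, then the blocks 7.06 and 18.3 kb upstream of Myh2. In every library that order of the last 4 was kept, the Myh1 and Myh2 blocks being closest, at 38.3 and 36.0 in Ex2.

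**Figure D5:**
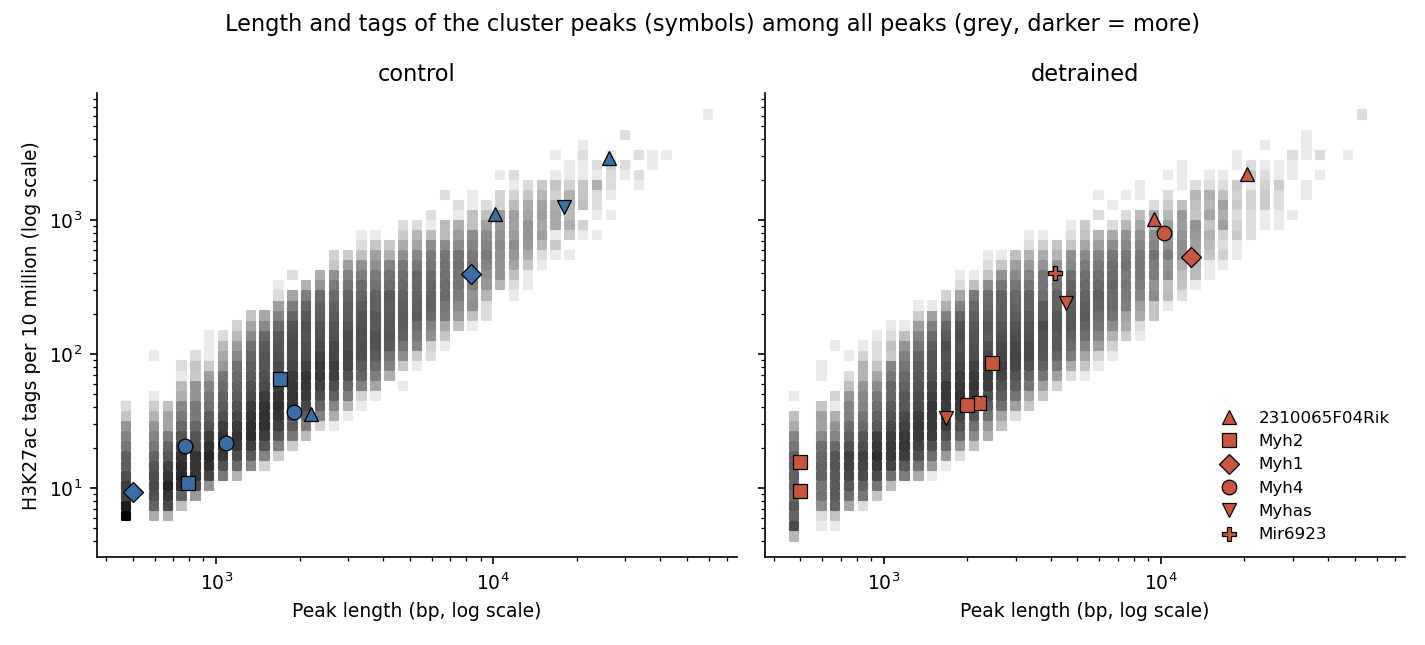
Length of each peak (bp, log scale) against its H3K27ac tags (per 10000000, log scale) for all peaks (grey squares, darker with more peaks) and the peaks of the cluster blocks (symbols by gene name). The 2 strong peaks named for linc-Myh lie at the upper right in each group, and the third control peak of that name and the weak Myh2 and Myh4 peaks lie among the bulk of peaks.

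Myh3, Myh8 and Myh13, the developmental and extraocular genes, had no peak over their start sites or bodies in either table. The nearest peak to the start of Myh3 was 24840 bp away in control and 25040 bp in detrained. For Myh8 the distances were 21672 and 32829 bp, and for Myh13 71651 and 82808 bp. A gene with no listed peak was below the calling threshold, and its tags are not known.

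Of the 8 myosin heavy chain genes elsewhere in the genome, 4 had peaks named for them in both groups and 4 had none in either. By name, Myh9, a non-muscle chain of many cell types, held 1437 tags in control and 1597 in detrained, and Myh10, also non-muscle, 319 and 368. Myh11, the smooth muscle chain, held 101 and 157 tags, and Myh14 79.8 and 125. The peaks over the gene itself, whatever their name, held 1630 and 1761 tags for Myh9, 302 and 297 for Myh10, 101 and 165 for Myh11 and 41.6 and 33.1 for Myh14, so that the direction for Myh10 and Myh14 turned with the way peaks were assigned. The slow and cardiac chains Myh7 and Myh6 had no peak of any name over the gene, nor had Myh7b and Myh15. By name, the densities of the 4 with peaks were between 17.8 and 43.1 tags per kb, below those of the linc-Myh and Myh4 blocks.

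The genes on either side of the cluster held Gas7 (1040 tags in control, 1175 in detrained), Pirt (194 and 172), Adprm (136 and 120) and Tmem220 (48.9 and 43.6), and the peak named for Adprm also overlapped Sco1, which had none of its own. Pirt's peaks lay outside the gene body. Among genes with a peak in both tables, those nearest to Myh1 over the 4 libraries were Kitl, Zfp385b and Rflnb, at distances of 0.06, 0.10 and 0.11 in log2 tags. Those nearest to Myh2 were 5031426D15Rik, Lin7a and Fhl2 (0.13, 0.18 and 0.23). For Myh4 they were Mpc2, E130102H24Rik and Pigl (0.40, 0.68 and 1.23), which likewise held far fewer tags in control than in detrained by name.

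Reads were kept only where they mapped to 1 place, and the fast genes resemble each other. Of windows of 75 bases that start in the exons, 30.5% in Myh2, 32.7% in Myh1 and 23.1% in Myh4 had another match in the cluster with at most 2 mismatches. Over the whole gene these shares were 8.19%, 9.66% and 6.60%, and in the linc-Myh domain 4.03%. The depth of exonic H3K27ac in the fast genes is to that extent uncertain.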

How the data were processed

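H3K27ac and input chromatin of mouse quadriceps was sequenced (75-base reads). By the study's methods and the submitters' processing notes, the authors mapped uniquely placed reads to mm10 with Bowtie (version 1.2 in the notes) and called peaks per group on the pooled libraries against that group's input with HOMER (at least 2-fold, false discovery rate 0.05). The deposited peak score is a signal, tags of both libraries per 10000000 total tags. The deposited value of each library and input is a log2 value that the authors regularised within each table. The last columns, the authors' own fold change and p-values against input, were not used.

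Pooled tags were recovered as score times total tags (100% of peaks within 0.25 of a whole tag) and shared between the 2 libraries by their log2 values. The values per library are therefore estimates. Their spread follows the regularised values and may be smaller than that of separate counts. Densities are printed as tags per kb per 10000000, and log2 differences between blocks use (tags + 0.5). Blocks are peaks of the 2 tables overlapping by at least 1 bp. Blocks were called apart at 2-fold or more with no overlap of libraries, with no test between the separately normalized tables. Replicates are separate animals. Intervals are exact Poisson at 95% and cover counting error only. Promoters came from RefSeq GRCm38.p6. Input tags were estimated from the log2 values. Python 3.11.15, numpy, pandas and scipy were used. The block comparison was run on simulated data with changes larger than 2-fold, in blocks with many tags and with the called length unaffected. This says nothing of weak blocks, of smaller changes or of differences in called length.

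Named were the 7 genes, the 3 blocks with most tags, the blocks with the largest rise and fall, other myosin heavy chain genes, flanking genes and, for Myh4, Myh1 and Myh2, the 3 genes nearest in level by Euclidean distance over the libraries of log2(summed tags + 1). Members, lists and motifs were chosen with earlier results of these data known. Alternatives were the scaling, centring, input, called length, pseudocount, a stricter peak set, pairing of peaks and leaving out each library.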

Additional observations from a re-analysis of the deposited data

How the results depend on the processing

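No paired analysis was possible because the libraries came from separate animals, which leaves no pairs between the groups. The blocks were compared without a test. The difference in log2 density over the cluster (-0.13) stayed between -0.16 and -0.08 under the scaling to listed peaks, centring, input subtraction, peaks at least 4-fold over input, blocks with both tables and, an alternative chosen after seeing the data, every peak from Myh3 to Myh13. Leaving out 1 library gave -0.31 to 0.06. The difference in log2 tags (0.06) was between 0.04 and 0.11 under the first 4 of these, -0.09 for blocks with both tables and -0.10 for every peak from Myh3 to Myh13, and -0.13 to 0.24 without 1 library. The values with all libraries in moved by less than the SD between replicates (0.19). With 2 libraries per group a value without 1 library cannot move by more than that SD, so this says nothing of stability, and the sign of the density turned without C3 and that of the tags without C2.

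The count of blocks apart was 0 in the cluster under every alternative run but 1. Tags per block without the called length gave 1, the far upstream block of Myh2, and 2266 of 31776 blocks in all. Myh2 by gene name was -0.26 in log2 density, detrained minus control, and 1.36 higher in summed tags, and -0.47 in density for peaks at least 4-fold over input. It had 2.50 kb covered in control and 7.67 kb in detrained. Myh4 by gene name was 1.89 higher in density, and 0.09 when peaks were assigned by block to the nearest start site, also chosen after seeing the data. The Myh1 block was -0.19 in density and 0.44 in tags. The weak peaks rest on few tags, and peaks under the calling threshold have no value.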

Other observations

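The members' peaks had a GC content of 44.8% in control and 44.0% in detrained, weighted by length, against 48.4% and 48.6% over all peaks. TATAAA on either strand occurred 0.916 and 1.07 times per kb in them, against 0.668 and 0.649 over all peaks, and the MEF2 consensus 0.131 and 0.148 times, against 0.174 and 0.169. E-boxes occurred 5.35 and 5.29 times per kb, against 5.47 and 5.48. These are descriptions of the peaks, which differ in GC content, and no test was made. The peak of the Myh4 block named for Myhas in control held 1.56 TATAAA matches per kb, and the detrained peak named for Myh4 held 1.75.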
